A study of Mus musculus with 8 samples.

Results

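Imprinted genes were followed in the lower first molars of E18.5 mouse embryos. The list held 35 imprinted genes, 21 that are paternally and 14 that are maternally expressed by common knowledge, out of 43629 gene identifiers in each count table. Of these, 34 had a row, and 29 had enough reads to be tested. Peg13 was not analysed here. Dlk1, Rian and Rtl1 were listed at 0 in every embryo, Usp29 had at most 8 counts and Ascl2 at most 12 counts in any embryo. The WT group was 4 Jagged1 fl/fl embryos (J3, J5, J6 and J7), and the mutant group was 4 K14:cre; Jagged1 fl/fl embryos (K14J26, K14J28, K14J29 and K14J30), so that both groups carried the floxed Jagged1 alleles. K14-driven Cre acts in epithelium, whereas each library held the RNA of whole left and right molars of 1 embryo, mesenchyme included. The sex and litter of single embryos are not given in the labels.

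An imprinted gene is transcribed mainly from the allele inherited from one parent, because a differentially methylated region, set in the germ line, silences the other copy. Imprinted genes lie in clusters in which a long non-coding RNA or an insulator often controls several neighbours, and many of them set the growth of the fetus and the placenta. Several are imprinted in some tissues and transcribed from both alleles in others, as Ube3a is outside neurons and Gnas is in most organs. The reads were not assigned to parental alleles, so that all values below are total transcript levels and the words paternally and maternally expressed are background.

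The libraries held 17327224 to 28613574 counts in WT and 24692128 to 29792467 counts in mutant embryos, and 3 counts corresponded to 0.0998 to 0.166 CPM (counts scaled to the size of the library). Jag1 was lower in every mutant (34.0 to 57.1 CPM) than in every WT embryo (95.2 to 104 CPM). All 13 lists of cell type and proliferation markers were detected. The summed levels of odontoblast (558 to 1804 CPM in WT, 2170 to 7163 CPM in mutants), dental epithelium (4657 to 5371 and 5486 to 8083 CPM) and osteoblast genes (835 to 998 and 1099 to 1222 CPM) were higher in every mutant (exact permutation p = 0.0286 each). The summed dental mesenchyme genes overlapped (1021 to 1138 CPM in WT, 891 to 1072 CPM in mutants, exact permutation p = 0.6), although 4 of the 6 fell, against 6.61% of all genes. The summed level of 7 ameloblast genes was 711 to 3423 CPM in WT and 3959 to 114750 CPM in mutants, highest in K14J26, then K14J29, K14J30 and K14J28. Summed skeletal muscle transcripts were 6.87 and 16.6 CPM in J3 and J5, 469 and 245 CPM in J6 and J7, and 7.40 to 23.4 CPM in mutants. The summed level of 5 proliferation genes was 1049 to 1254 CPM in WT, 422 CPM in K14J26, 814 CPM in K14J29, 1049 CPM in K14J30 and 1333 CPM in K14J28. Xist was at 1930 and 1468 CPM in K14J28 and K14J29 and at 1.09 CPM or less in the other 6 embryos. The part of these differences in the values below was not tested beyond the alternatives given, and in whole molars fewer cells of a type and less RNA per cell cannot be told apart.

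More imprinted genes were lower than higher in mutant molars. With edgeR's quasi-likelihood test and Benjamini-Hochberg adjustment over 17129 genes, 9 of the 29 imprinted genes tested fell (31%) and 2 rose (6.9%) at an adjusted p under 0.05, whereas 6.61% of all genes tested fell and 9.52% rose. The genes that fell were Magel2, Phlda2, Nespas, Mirg, Mest, Ndn, Nnat, Meg3 and Sgce, and those that rose were Kcnq1ot1 and Ube3a. The median log2 fold change (mutant over WT) was -0.30 over the 29 genes and 0.01 over all genes tested. Because the genes were listed with earlier results of these data known, the list itself was not tested. At an unadjusted p under 0.05, 11 were lower, against 15.7% of all genes, and 4 were higher, against 19.1%. A cut at p 0.05 together with a log2 fold change of 0.5 or more in size left 7 lower (5.85% of all genes) and 0 higher imprinted genes (8.33% of all genes) with edgeR, and DESeq2 also gave 7 and 0. All mutant values lay below all WT values for 9 imprinted genes, against 11.6% of all genes, and above them for 2, against 12.6%.

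Both parental classes held genes that fell and genes that rose. Of 17 paternally expressed genes tested, 6 fell and 1 rose, 13 had a negative and 4 a positive change, and the median log2 fold change was -0.23. Of 12 maternally expressed genes, 3 fell and 1 rose, 7 had a negative and 5 a positive change, and the median was -0.37. Of all genes 6.61% fell and 9.52% rose, and the difference between the classes was not tested. The fold changes ran from -1.67 to 0.49 in the paternal and from -1.41 to 0.43 in the maternal class, so that the ranges overlapped almost fully. Among the genes that passed, neither class kept the same direction in all clusters. In the Kcnq1ot1 cluster the paternal Kcnq1ot1 rose and the maternal Phlda2 fell, but the maternal Cd81 (0.40) and Cdkn1c (0.30 ± 0.10, edgeR adjusted p = 0.0688), a cell cycle inhibitor gene outside the list, had positive changes that did not pass. In the Prader-Willi/Angelman cluster the maternal Ube3a rose and the paternal Ndn and Magel2 fell, but the change of the paternal Snrpn was 0.41 and did not pass. Leaving out each embryo gave 0.21 to 0.51 for Cd81 and 0.23 to 0.55 for Snrpn. With an enamel gene score as a covariate the changes of Cd81 and Snrpn were -0.19 and -0.21.

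**Figure D1:**
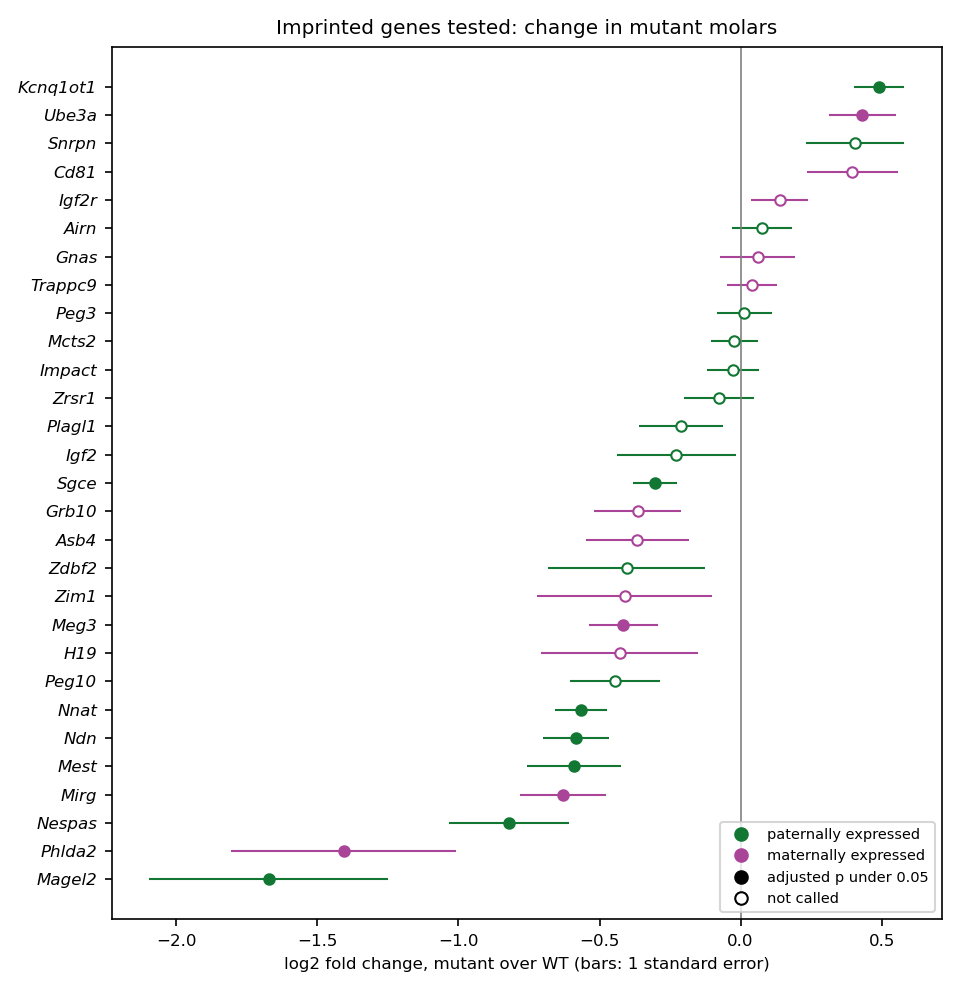
Log2 fold change, mutant over WT, of the 29 imprinted genes tested (horizontal axis, bars show 1 standard error), coloured by the allele that is expressed; filled points have an adjusted p under 0.05. Magel2 and Phlda2 lie farthest to the left, at -1.67 and -1.41, and both colours are found on either side of 0.

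The growth factor cluster around Igf2 held abundant members. Igf2 encodes a fetal growth factor and H19 a maternally expressed long non-coding RNA transcribed in the same cells. H19 stood at 1235, 1471, 1296 and 1656 CPM in WT embryos J3, J5, J6 and J7 and at 575, 1690, 1102 and 838 CPM in mutants K14J26, K14J28, K14J29 and K14J30, an order of embryos that is kept below. The groups overlapped, since K14J28 had the highest value of all 8 embryos and the other mutants lay below every WT embryo. The log2 fold change of H19 was -0.43 ± 0.28 (SE, n = 4 per group; edgeR adjusted p = 0.30), and without K14J28 it was -0.76 (adjusted p = 0.0274, range over 21 alternatives 0.0255 to 0.59). With an enamel gene score as a covariate the sign turned, to 0.28 (adjusted p = 0.59). Per kilobase of exon, H19 led all 34 genes in WT molars with 575 CPM per kilobase, ahead of Igf2 with 155, Gnas with 124 and Cd81 with 111.

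Igf2 was at 714, 995, 738 and 1091 CPM in WT and at 569, 1052, 793 and 606 CPM in mutants. The groups overlapped, with a log2 fold change of -0.23 ± 0.21 (SE, n = 4 per group; edgeR adjusted p = 0.47), which was -0.11 without K14J26 and -0.44 without K14J28. Igf2r, the receptor that carries IGF2 to lysosomes, was at 121 to 145 CPM in WT and 124 to 169 CPM in mutants. Grb10, an adaptor that dampens insulin and IGF receptor signals, was at 358, 357, 317 and 428 CPM in WT and at 215, 362, 297 and 260 CPM in mutants. Here too K14J28 lay among the WT embryos and the other 3 mutants below them (log2 fold change -0.37 ± 0.15, edgeR adjusted p = 0.126). Of 12 further genes of the IGF axis, the insulin receptor gene Insr rose, with 61.0 to 71.3 CPM in WT and 82.2 to 126 CPM in mutants (log2 fold change 0.60 ± 0.13, edgeR adjusted p = 0.0207). Igfbp4, which encodes a binding protein that holds IGFs, fell from 373 to 485 CPM in WT to 277 to 304 CPM in mutants (-0.56 ± 0.08, adjusted p = 0.00855), and the other 10 did not pass. These are 1 of 12 genes in each direction, near the 9.52% and 6.61% of all genes. Insr was no longer called without J3, J7 or K14J29, without J6 and J7 together, or with the muscle or the enamel score as a covariate, and Igfbp4 was no longer called without J6 and J7 together or with the enamel score.

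H19 also carries the hairpin of miR-675 in its exon, and the table has a row for it. The row overlapped 84 bases of the H19 exons on the same strand (chr7:142577064-142577147, GRCm38.p6) and held 22855 counts, with a log2 fold change of -0.45 beside -0.43 for H19. In a library of fragmented poly A RNA these are pieces of the H19 transcript, not the mature miRNA, which was not measured. The 2 mature sequences in RefSeq are shown because they are the product that H19 is known for beside its RNA, with the seed (bases 2 to 8) in capitals.
miR-675-5p: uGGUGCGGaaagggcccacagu
miR-675-3p: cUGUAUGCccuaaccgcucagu

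The Kcnq1ot1 cluster gave both a decrease and an increase. Phlda2, which encodes a small pleckstrin homology protein that restrains placental growth, was close to the limit of detection, at 0.498, 0.742, 0.623 and 0.912 CPM in WT and 0.0961, 0.299, 0.208 and 0.427 CPM in mutants. These values rest on 9 to 27 counts per WT and 2 to 11 counts per mutant embryo, and the groups did not overlap. Phlda2 fell by 1.41 ± 0.40 on the log2 scale (SE, n = 4 per group; edgeR adjusted p = 0.0427). Cd81, a tetraspanin, was at 310, 317, 342 and 311 CPM in WT and 574, 315, 437 and 358 CPM in mutants, where K14J28 again lay inside the WT range (0.40 ± 0.16, adjusted p = 0.118). Leaving out each embryo gave 0.21 to 0.51 for Cd81 (edgeR adjusted p 0.0282 to 0.227, under 0.05 in 1 fit). Ascl2, a trophoblast transcription factor, was at 0.101 to 0.259 CPM in WT and 0.173 to 0.399 CPM in mutants.

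Kcnq1ot1 is the paternally expressed antisense RNA that silences its neighbours on the paternal chromosome. It was at 23.4, 18.51, 19.6 and 20.5 CPM in WT and 30.6, 28.5, 26.8 and 29.4 CPM in mutants. The lowest mutant lay above the highest WT embryo, and the increase of 0.49 ± 0.09 on the log2 scale (SE, n = 4 per group; edgeR adjusted p = 0.0134) kept an adjusted p under 0.05 when any 1 of the 8 embryos was left out. The gene row spans 93092 exon bases (chromosome 7, 143203458 to 143296549, minus strand, GRCm38) and shares 121 of them with Kcnq1 on the other strand. The kit did not mark strand, so reads in shared bases cannot be assigned to one gene. Kcnq1 itself was at 1.09 to 2.23 CPM in WT and 0.965 to 1.73 CPM in mutants (-0.31 ± 0.27, adjusted p = 0.446).

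**Figure D2:**
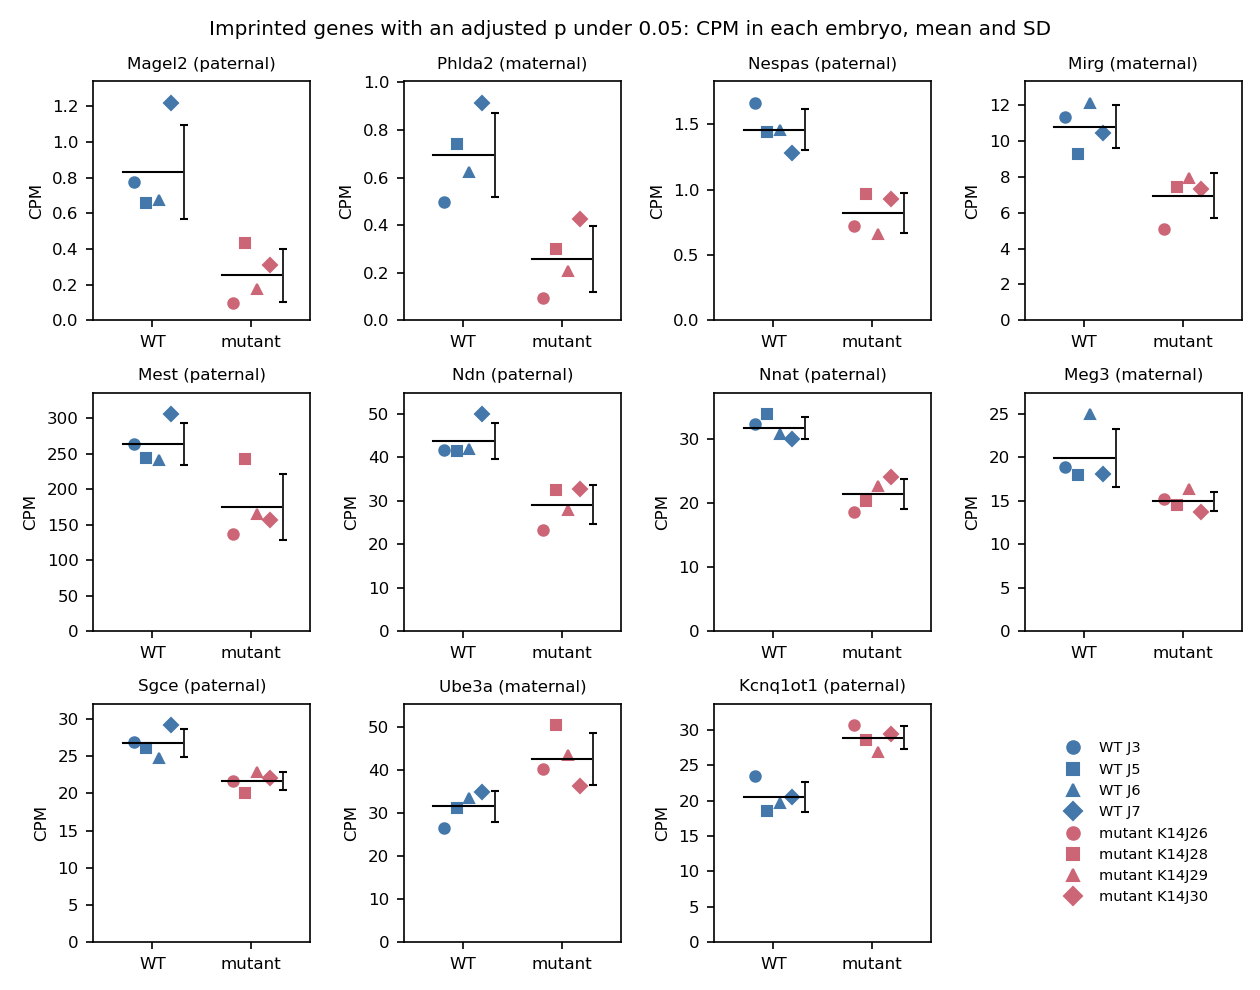
CPM (vertical axes, from 0) in each embryo for the 11 imprinted genes with an adjusted p under 0.05; horizontal lines show group means and error bars the SD of 4 embryos. Kcnq1ot1 and Ube3a are higher in every mutant than in every WT embryo, and among the others only Mest overlaps, through K14J28 at 243 CPM.

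In the Prader-Willi/Angelman cluster on chromosome 7, the paternally expressed Ndn and Magel2 fell and the maternally expressed Ube3a rose, whereas the change of the paternally expressed Snrpn had the sign of that of Ube3a and did not pass. Ndn encodes necdin, a MAGE family protein linked to cell cycle exit, and stood at 41.6, 41.5, 41.8 and 49.9 CPM in WT and 23.3, 32.6, 27.9 and 32.8 CPM in mutants. The groups were clearly apart, and Ndn fell by 0.58 ± 0.12 on the log2 scale (SE, n = 4 per group; edgeR adjusted p = 0.0173). Magel2, a MAGE family partner of ubiquitin ligases next to Ndn, was at 0.775, 0.660, 0.675 and 1.22 CPM in WT and 0.0961, 0.433, 0.173 and 0.310 CPM in mutants. This was the largest fold change among the imprinted genes tested (-1.67 ± 0.42, adjusted p = 0.0311), but it rests on 13 to 36 counts per WT and 2 to 13 counts per mutant embryo.

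Ube3a, the ubiquitin ligase gene lost in Angelman syndrome, was at 26.7, 31.2, 33.5 and 35.03 CPM in WT and 40.2, 50.5, 43.6 and 36.2 CPM in mutants. The lowest mutant, K14J30, was just above the highest WT embryo, J7. Ube3a rose by 0.43 ± 0.12 on the log2 scale (SE, n = 4 per group; edgeR adjusted p = 0.039), and with K14J28 and K14J29, the embryos with Xist, left out the change was 0.26 (adjusted p = 0.169, range over 21 alternatives 0.0113 to 0.182). Its antisense partner Snhg14, which shares 1803 of the 20626 exon bases of Ube3a, was at 21.4 to 24.4 CPM in WT and 18.6 to 23.3 CPM in mutants (-0.12 ± 0.09, adjusted p = 0.376). Snrpn, which encodes a splicing protein, was at 25.7, 28.2, 28.5 and 25.0 CPM in WT and 47.8, 24.2, 36.1 and 34.3 CPM in mutants. K14J28 was the lowest and K14J26 the highest of all embryos (0.41 ± 0.17, adjusted p = 0.133). Leaving out each embryo gave 0.23 to 0.55 for Snrpn (edgeR adjusted p 0.0139 to 0.265, under 0.05 in 1 fit).

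Mest, Nnat and Sgce fell. Nnat encodes neuronatin, a small proteolipid of the endoplasmic reticulum, and was at 32.2, 33.8, 30.7 and 29.96 CPM in WT and 18.6, 20.3, 22.6 and 24.0 CPM in mutants. The groups did not overlap. Nnat fell by 0.57 ± 0.09 on the log2 scale (SE, n = 4 per group; edgeR adjusted p = 0.0104), a call that held in all 8 fits with 1 embryo left out. It lies within an intron of Blcap with no shared exon base, and Blcap was at 29.96 to 32.1 CPM in WT and 31.3 to 43.2 CPM in mutants.

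Mest, a hydrolase family gene of embryonic mesoderm, was at 264, 244, 242 and 306 CPM in WT and 137, 243, 165 and 157 CPM in mutants. K14J28 reached the lowest WT embryos and the other 3 mutants lay well below. Mest fell by 0.59 ± 0.17 on the log2 scale (SE, n = 4 per group; edgeR adjusted p = 0.0427), and by 0.79 without K14J28 (adjusted p = 0.00431, range over 21 alternatives 0.00431 to 0.712). Mest shares 912 of its 3945 exon bases with Copg2 on the other strand, so that some reads counted for either gene may belong to the other. Copg2, a coat protein gene, was at 112 to 121 CPM in WT and 97.5 to 106 CPM in mutants (-0.19 ± 0.06, adjusted p = 0.0461).

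Sgce encodes epsilon-sarcoglycan and shares a promoter region with Peg10, a retrotransposon-derived gene needed in the placenta. Sgce was at 26.9, 26.1, 24.8 and 29.2 CPM in WT and 21.7, 20.1, 22.9 and 22.0 CPM in mutants, with no overlap, and fell by 0.30 ± 0.08 on the log2 scale (SE, n = 4 per group; edgeR adjusted p = 0.0323). Peg10 was at 18.3, 17.6, 15.3 and 25.5 CPM in WT and 11.8, 15.2, 15.1 and 14.2 CPM in mutants. The groups did not overlap, although J6 and K14J28 were nearly level, and the change of -0.45 ± 0.16 did not pass (edgeR adjusted p = 0.0836, range over 21 alternatives 0.0457 to 0.865). Asb4, a subunit of ubiquitin ligases in the same cluster, was at 4.60 to 5.19 CPM in WT and 2.55 to 4.61 CPM in mutants (-0.37 ± 0.18, adjusted p = 0.184).

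Promoters of 3 genes are shown because Nnat and Mest fell together and Kcnq1ot1 rose. ZFP57, a zinc finger protein that protects methylated imprints, binds the hexamer TGCCGC when methylated. The windows run from 250 bases before to 50 bases after the RefSeq start (GRCm38.p6), 5′ to 3′ along the gene, with the hexamer on either strand (TGCCGC or GCGGCA) in capitals.
Nnat, chr2:157559828-157560127, plus strand: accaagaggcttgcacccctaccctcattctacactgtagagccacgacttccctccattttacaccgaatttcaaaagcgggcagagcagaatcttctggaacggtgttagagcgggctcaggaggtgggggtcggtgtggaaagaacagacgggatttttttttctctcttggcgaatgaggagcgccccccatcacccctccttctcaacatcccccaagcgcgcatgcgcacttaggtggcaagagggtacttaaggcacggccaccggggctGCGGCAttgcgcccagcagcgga
Mest, chr6:30737800-30738099, plus strand: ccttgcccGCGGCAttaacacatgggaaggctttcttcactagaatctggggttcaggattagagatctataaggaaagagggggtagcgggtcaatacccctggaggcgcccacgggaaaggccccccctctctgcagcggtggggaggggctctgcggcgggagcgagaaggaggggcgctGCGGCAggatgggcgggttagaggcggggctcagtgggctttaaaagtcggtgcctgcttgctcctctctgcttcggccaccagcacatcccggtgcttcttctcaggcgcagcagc
Kcnq1ot1, chr7:143296498-143296797, minus strand: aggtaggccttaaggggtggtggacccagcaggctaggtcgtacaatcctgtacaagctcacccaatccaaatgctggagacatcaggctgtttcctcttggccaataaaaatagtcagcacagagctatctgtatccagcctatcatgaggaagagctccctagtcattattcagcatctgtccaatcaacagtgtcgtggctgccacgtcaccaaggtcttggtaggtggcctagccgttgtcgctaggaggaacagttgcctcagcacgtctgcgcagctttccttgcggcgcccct
The Nnat window holds 1 match, the Mest window 2 and the Kcnq1ot1 window 0. Of 27025 genes with a window, 13.1% held a match in at least 1 of their windows. Among the imprinted genes this was 7 of the 15 paternally expressed genes with a window (46.7%) and 3 of the 12 maternally expressed ones (25.0%). Some genes have more than 1 window, which raises a share counted by gene. Counted by window, 11.6% of 32851 held a match. This was 8 of 24 windows in the paternally (33.3%) and 3 of 18 in the maternally expressed genes (16.7%). Of the 10 imprinted genes with a match, Nnat, Mest and Meg3 fell. Ndn, Magel2, Phlda2 and Mirg, which have a window but no match, fell as well. The hexamer contains a CpG, and the median number of CpG per window was 7 over all promoters, 10.5 in the paternally and 21.5 in the maternally expressed genes. A second Mest start (chr6:30733256-30733555) has 0 matches. A match is a run of letters, and neither methylation nor binding was measured.

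The Dlk1 to Mirg cluster on chromosome 12 could be read in part. Meg3 and Mirg are maternally expressed non-coding RNAs, and Mirg carries many miRNA hairpins. Mirg was at 11.3, 9.28, 12.1 and 10.4 CPM in WT and 5.10, 7.45, 7.90 and 7.30 CPM in mutants, with no overlap. It fell by 0.63 ± 0.15 on the log2 scale (SE, n = 4 per group; edgeR adjusted p = 0.028). Meg3 was at 18.9, 17.9, 25.0 and 18.0 CPM in WT and 15.2, 14.5, 16.4 and 13.7 CPM in mutants. The groups did not overlap, and Meg3 fell by 0.42 ± 0.12 (adjusted p = 0.0467), although no fit with 1 embryo left out kept its adjusted p under 0.05 (range 0.0514 to 0.0945).

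Dlk1, a transmembrane ligand related to Delta, Rtl1, a retrotransposon-derived placental gene, and Rian, a host RNA of small nucleolar RNAs, were listed at 0. The stretch from Dlk1 (chromosome 12, 109452823 to 109689544, GRCm38) holds 54 genes of the table, of which 53 were at 0 in all 8 embryos, and Meg3 alone had reads. A stretch of chromosome 19 (4097182 to 4201662) likewise had 13 of 14 genes at 0, among them Ppp1ca, which every cell uses. Of 21474 protein coding genes, 3637 (16.94%) were at 0 throughout. The zeros of Dlk1, Rtl1 and Rian are therefore not read as absence of the transcripts, and whether all reads of Meg3 were counted is uncertain. The paternally expressed Dio3, beyond this stretch, encodes a thyroid hormone deiodinase and fell, with 12.1 to 18.495 CPM in WT and 9.77 to 11.1 CPM in mutants (-0.60 ± 0.13, edgeR adjusted p = 0.0195).

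**Figure D3:**
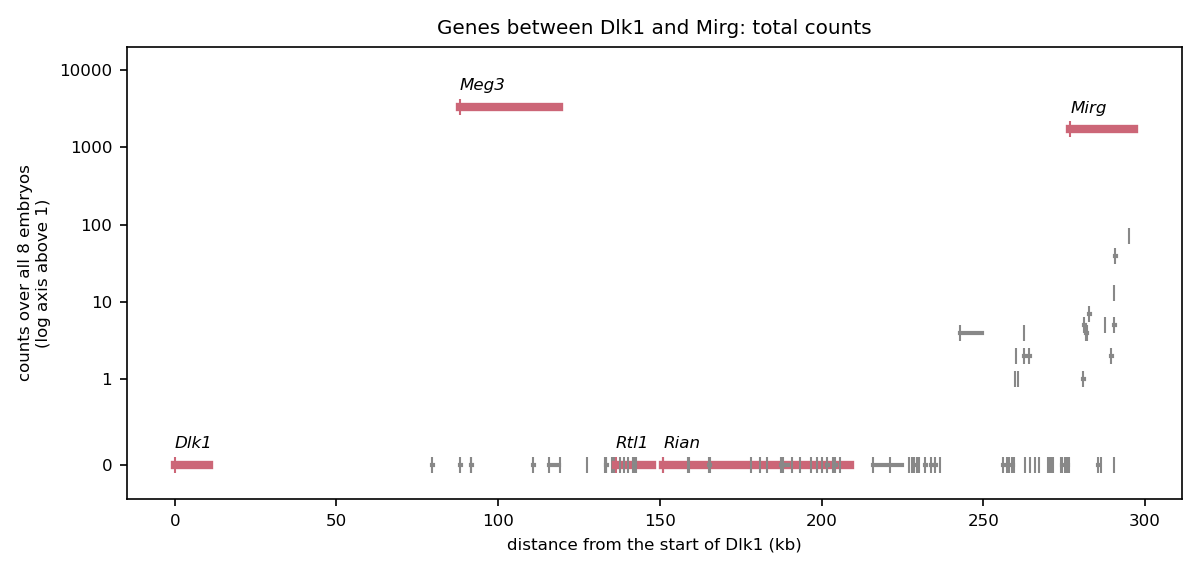
Counts summed over all 8 embryos (vertical axis, logarithmic above 1) of the genes between Dlk1 and Mirg, drawn against the distance from the start of Dlk1 in kilobases; line length is gene length and listed imprinted genes are coloured. Dlk1, Rtl1 and Rian lie on the line at 0 with their neighbours, whereas Meg3 (3368 counts) and Mirg (1717 counts) stand high.

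The Gnas cluster gave a low antisense RNA that fell beside an abundant gene without a detectable change. Gnas encodes the stimulatory G protein alpha subunit and was at 1287 to 1457 CPM in WT and 1841, 1130, 1453 and 1377 CPM in mutants (0.06 ± 0.13, edgeR adjusted p = 0.778). Nespas, the paternally expressed antisense RNA of the cluster, was at 1.66, 1.44, 1.45 and 1.28 CPM in WT and 0.721, 0.965, 0.658 and 0.931 CPM in mutants. The groups did not overlap, and Nespas fell by 0.82 ± 0.21 on the log2 scale (SE, n = 4 per group; adjusted p = 0.033). It rests on 28 to 38 counts per WT and 15 to 29 counts per mutant embryo and shares 988 of its 3143 exon bases (31.43%) with Gnas, so that some of its reads may belong to Gnas. Airn, the paternally expressed antisense RNA that silences Igf2r, was at 11.0 to 14.2 CPM in WT and 11.9 to 14.2 CPM in mutants (0.08 ± 0.11, adjusted p = 0.646).

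Zim1, Zdbf2, Plagl1 and Peg3 did not pass. Zim1, a zinc finger gene, was at 5.48 to 7.60 CPM in WT and 3.89, 8.85, 3.64 and 3.18 CPM in mutants, where K14J28 was the highest of all embryos (-0.41 ± 0.31, edgeR adjusted p = 0.373; -0.88 without K14J28, adjusted p = 0.00784, range over 21 alternatives 0.00784 to 0.76). Zdbf2, which affects growth after birth, was at 5.36 to 10.2 CPM in WT and 3.46 to 8.09 CPM in mutants (-0.40 ± 0.28). Plagl1, a zinc finger regulator of growth genes, was at 122 to 171 CPM in WT and 95.9 to 150 CPM in mutants (-0.21 ± 0.15). Leaving out each embryo gave -0.68 to -0.18 for Zdbf2 and -0.35 to -0.10 for Plagl1. Peg3, a zinc finger gene of fetal growth, was at 320 to 395 CPM in WT and 318 to 414 CPM in mutants (0.01 ± 0.10), and its neighbour Usp29, a deubiquitinase gene, was at 0.270 CPM or less in all embryos.

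A further 4 genes with roles in translation, splicing and transport did not pass. Impact, a regulator of translation under stress, was at 56.8 to 77.4 CPM in WT and 61.5 to 64.6 CPM in mutants (-0.03 ± 0.09). Mcts2, a retrogene for a translation factor within an intron of H13, was at 13.2 to 14.2 CPM in WT and 12.1 to 14.1 CPM in mutants (-0.02 ± 0.08). Zrsr1, a splicing factor retrogene within Commd1, was at 11.6 to 12.3 CPM in WT and 9.98 to 14.3 CPM in mutants (-0.08 ± 0.12). Trappc9, a gene of vesicle transport, was at 30.9 to 34.9 CPM in WT and 29.4 to 37.6 CPM in mutants (0.04 ± 0.09). Of all 18 genes that did not pass, 7 had a log2 fold change within 0.1 of 0, namely these 4, Peg3, Gnas and Airn. Neither retrogene shares any window of 100 bases with its parent gene, Mcts1 or Zrsr2, so that reads of that length or longer can be told apart.

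The mutants did not differ from WT to the same degree. K14J26 had the lowest value of the 4 mutants for 14 of the 29 genes, and K14J28 had the highest for 13. These counts were not set against those of all genes tested, so they are not read as particular to imprinted genes. The median log2 ratio to the WT mean over the 29 genes was -0.39 in K14J26, -0.40 in K14J30, -0.20 in K14J29 and -0.12 in K14J28, and it lay between -0.06 and 0.13 in the WT embryos. K14J28 lay below every WT embryo for 14 genes, among them Nnat, Ndn, Magel2, Mirg and Snrpn. It lay above every WT embryo for 6 (H19, Zim1, Igf2r, Peg3, Ube3a and Kcnq1ot1). For the other 9 it lay within the WT range, among them Igf2, Grb10, Mest, Zdbf2, Plagl1 and Cd81. The numbers below and above every WT embryo were 18 and 7 in K14J26, 16 and 4 in K14J29, and 19 and 5 in K14J30. These numbers, too, were not set against all genes tested. K14J28 was also the mutant with the lowest summed ameloblast transcripts and the highest summed proliferation transcripts, and K14J26 was the opposite on both. Whether the stage or make-up of the molars has a part in these values was not tested. Without K14J28, all mutants lay below all WT embryos for 16 imprinted genes (55.2%) and above them for 4 (13.8%), against 18% and 19.9% of all genes with the same embryos.

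**Figure D4:**
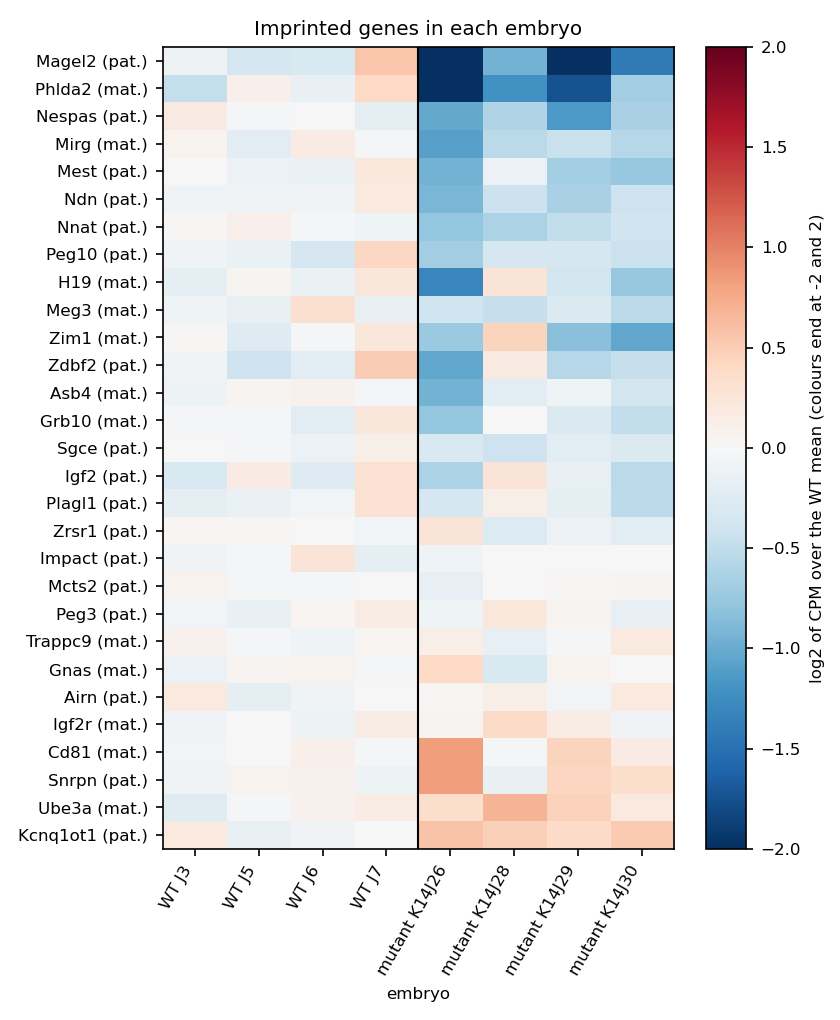
Log2 of CPM over the WT mean for the 29 imprinted genes tested (rows, ordered by fold change) in the 8 embryos (columns); blue is below and red above the WT mean, and colours end at -2 and 2. The column of K14J28 is pale for H19, Mest and Grb10, where K14J26 is blue.

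Calls depended on single embryos. Of the 11 calls, 2 held without J7, 2 without K14J29, 3 without J3, 3 without J5, 4 without J6, 7 without K14J30, 9 without K14J26 and 10 without K14J28. The number of calls among all genes went from 2764 to 536 without J7, 420 without K14J29, 660 without J3, 839 without J5, 1407 without J6, 2161 without K14J30, 3095 without K14J26 and 4322 without K14J28. All 11 genes kept their direction under every alternative in which they were tested. Without J6 and J7, the WT embryos with skeletal muscle transcripts, 0 of the 11 and 7 of all genes were called with 2 WT embryos left, and 10 of the genes had log2 fold changes from -1.44 to 0.55 in their former directions, while Phlda2 was not tested. With a muscle score or an enamel gene score as a covariate, 0 of the 11 and 187 or 298 of all genes were called with edgeR, and each of the 11 genes again kept its direction. With the enamel score the changes of Magel2 (-0.43), Phlda2 (-0.63), Ndn (-0.24), Mest (-0.11), Mirg (-0.40) and Nespas (-0.54) were more than 1.5 times smaller than without it, and Meg3 was at -0.61. With the Xist level as a covariate 5 of the 11 calls held, as they did without K14J28 and K14J29, and 8 held with library size only.

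Ratios of neighbouring or overlapping genes within an embryo do not depend on the scaling of libraries. For 10 pairs, chosen after the values were seen, the mutant and WT ratios were compared by an exact two-sided permutation test, whose smallest p with 4 against 4 embryos is 0.0286. Nnat over Blcap was 1.08, 1.12, 0.958 and 0.934 in WT and 0.431, 0.650, 0.637 and 0.736 in mutants, lower in 4 of 4 mutants (log2 difference -0.76, exact p = 0.0286, adjusted over 10 pairs 0.143). Nespas over Gnas was also lower in all mutants (-0.89, exact p = 0.0286, adjusted 0.143). Nnat and Nespas had already been called lower from the same values, so that these p-values are no separate test of them. Mest over Copg2 was 2.19, 2.15, 2.03 and 2.73 in WT and 1.40, 2.30, 1.65 and 1.498 in mutants, below the WT range in 3 of 4 mutants (-0.43, exact p = 0.114, adjusted 0.228). H19 over Igf2 was 1.73, 1.48, 1.76 and 1.52 in WT and 1.01, 1.61, 1.39 and 1.38 in mutants (-0.28, exact p = 0.0857, adjusted 0.214), so that H19 and Igf2 kept a similar proportion in K14J28 and WT, and H19 was lower relative to Igf2 in the other 3 mutants.

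**Figure D5:**
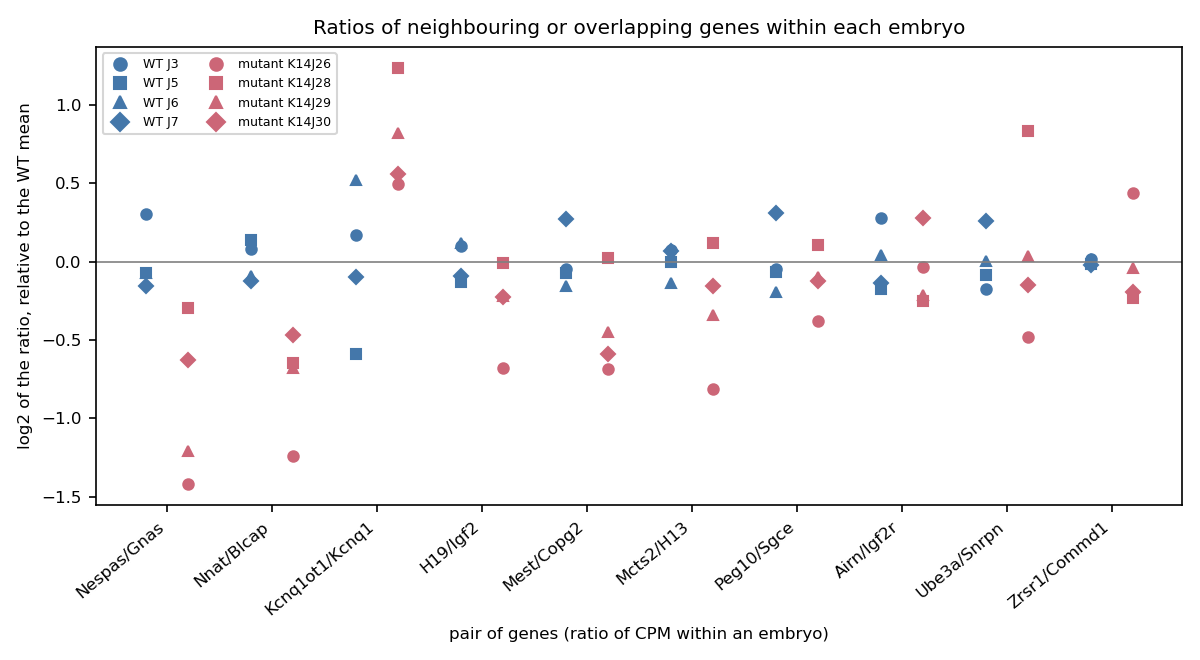
Log2 of the ratio of CPM of 2 genes within each embryo, relative to the WT mean of that ratio (vertical axis), for 10 pairs of neighbouring or overlapping genes (horizontal axis, ordered by exact p). The mutants lie below all WT embryos for Nespas/Gnas and Nnat/Blcap and overlap them for the other 8 pairs.

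Of 36 further imprinted genes listed, 31 were tested, 4 fell and 2 rose, beside 6.61% and 9.52% of all genes, with a median log2 fold change of -0.03. No gene that fell was left without J3, J5, J7 or K14J29, and none that rose without J3, J5, J7, K14J29 or K14J30, and over all fits with 1 embryo left out 0 to 7 fell and 0 to 6 rose. With the enamel score as a covariate and without J6 and J7 together 0 fell and 0 rose, and with the muscle score 1 fell and 0 rose (edgeR). Of the 12 paternally expressed among them, 3 fell and 0 rose (edgeR; also 0 rose at an unadjusted p under 0.05), namely Dio3, the nucleosome assembly gene Nap1l5 (-0.41 ± 0.10, adjusted p = 0.0268) and the phosphatase gene Inpp5f (-0.48 ± 0.11, adjusted p = 0.0259). Of the 19 maternally expressed, Copg2 fell, but some of its reads may belong to Mest, with which it shares exon bases. The actin nucleator gene Cobl rose (39.1 to 53.5 CPM in WT, 48.7 to 183 CPM in mutants, 1.17 ± 0.34, edgeR adjusted p = 0.0467). So did the proteoglycan gene Dcn (257 to 450 CPM in WT, 378 to 710 CPM in mutants, 0.72 ± 0.21, edgeR adjusted p = 0.0482). For both, K14J28 lay within the WT range.

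Of 20 genes that keep or read imprints, 17 were tested, 2 fell and 0 rose, beside 6.61% and 9.52% of all genes (edgeR; 2 rose at an unadjusted p under 0.05 and 0 with DESeq2). Zfp57 was at 52.6, 48.8, 43.9 and 53.5 CPM in WT and 22.8, 43.6, 28.9 and 35.3 CPM in mutants. All mutants were below all WT embryos, K14J28 by a small margin, and Zfp57 fell by 0.60 ± 0.17 on the log2 scale (SE, n = 4 per group; edgeR adjusted p = 0.0448). Its corepressor gene Trim28 was at 403 to 441 CPM in WT and 314 to 372 CPM in mutants and fell by 0.30 ± 0.08 (adjusted p = 0.0328). Both calls were lost when any 1 WT embryo or K14J29 was left out. Both were also lost with library size only, with the muscle or the enamel score as a covariate and without J6 and J7 together. The list had 1 call without K14J30, with the Xist level as a covariate and without K14J28 and K14J29 together. Uhrf1 and Dnmt1, which copy DNA methylation in dividing cells, were lowest in K14J26 (42.4 and 94.4 CPM), where proliferation transcripts were lowest as well, and did not pass (adjusted p = 0.186 and 0.362).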

How the data were processed

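Lower molars of 8 embryos at E18.5 were sequenced by the authors as poly A libraries, 1 library per embryo from pooled left and right molars. Reads were trimmed and aligned to GRCm38 with STAR, and the deposited values are raw counts per Ensembl gene. The paper names GenomicRanges and the submitters' processing notes name featureCounts as the counter, and extraction is given as RNeasy in the one and Trizol in the other. The treatment of strand and of reads with several matches is not given in the sources used here, and the kit did not mark strand. Imprinted genes were matched by Ensembl identifier through GENCODE on GRCm38, which gave a symbol to 42462 of 43629 identifiers (97.33%). The listed genes, the other lists and the named genes (all listed genes, genes of the other lists with an adjusted p under 0.05 and the genes that overlap a listed one) were chosen with earlier results of these data known.

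A gene was kept where 2 embryos of either group each had 10 counts or more (17129 genes). Groups were compared with edgeR 4.0.16 in R 4.3.3 (TMM scaling, quasi-likelihood test, Benjamini-Hochberg adjustment over all genes kept), and changes are log2 fold changes, mutant over WT, with standard errors. CPM used TMM-scaled library sizes of 17327224 to 29792467 counts before scaling. Levels of marker lists and ratios of genes were compared by exact permutation over the 70 arrangements of 4 against 4. DESeq2 1.42.0, other scalings and filters, covariates and leaving out embryos were tried as alternatives, and the fit was tested on simulated data. No 2 libraries of a group agreed within sampling noise. The chi-square per degree of freedom was 6.88 to 15.6 between WT embryos and 30.3 to 289 between mutants. The p-values set the difference between the groups against the spread between these embryos.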

Additional observations from a re-analysis of the deposited data

Results flagged for a closer look

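In 58 groups of 4 embryos (29 genes in WT and in mutants), 4 single embryos stood far from the other 3 of their group, where chance gives about 1 in 20 groups. Zim1 in mutant embryo K14J28 was at 8.85 CPM, beside 3.18 to 3.89 CPM in the other mutants. Ndn in WT embryo J7 was at 49.9 CPM, beside 41.5 to 41.8 CPM. Meg3 in WT embryo J6 was at 25.0 CPM, beside 17.9 to 18.9 CPM. Impact in mutant embryo K14J26 was at 61.5 CPM, beside 64.4 to 64.6 CPM.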

How the results depend on the processing

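The 11 calls among imprinted genes were also made with RLE scaling, with filterByExpr, with DESeq2 (10 genes lower and 2 higher in all, Peg10 added) and without the 20 most abundant genes. With the Xist level as a covariate 5 of the 11 calls held, without K14J28 and K14J29 also 5, and with library size only 8. The number that rose was 1 with upper-quartile scaling and 1 with library size only, and the number that fell was 5 with no count filter, where more genes were tested. With the muscle score as a covariate, with the enamel score as a covariate and without J6 and J7, 0 rose and 0 fell, and the cause was not tested. Leaving out each embryo gave 1 to 4 genes higher and 1 to 11 lower. With a cut at p 0.05 and a log2 fold change of 0.5 in size, 3 were higher and 14 lower with the Xist level as a covariate (10.2% and 7.65% of all genes) and likewise 3 and 14 without K14J28 and K14J29 (9.22% and 7.41%); 1 was higher and 7 lower with the muscle score (6.48% and 4.37% of all genes), 2 higher and 1 lower with the enamel score (5.18% and 3.88%) and 1 higher and 6 lower without J6 and J7 (6.5% and 3.95%), and leaving out each embryo gave 0 to 2 higher and 5 to 11 lower. Groups that did not overlap numbered 1 higher with library size only (7.93% of all genes), 5 higher and 17 lower without K14J28 and K14J29 (21.9% and 21.7% of all genes), and 2 to 4 higher and 9 to 16 lower when each embryo was left out (13.5% to 19.9% and 12.7% to 18% of all genes).

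The median log2 fold change of the paternally expressed genes was -0.45 with the Xist level, -0.10 with the enamel score and -0.43 without K14J28 and K14J29, and that of the maternally expressed genes was -0.56, -0.071 and -0.55. Leaving out each embryo gave -0.35 to -0.12 and -0.41 to -0.22. Jag1 had a log2 fold change of -1.18 (edgeR adjusted p = 0.114) without J6 and J7.

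Sign changes were confined to genes that were not called, and their cause was not tested. With the enamel score as a covariate the log2 fold change was 0.28 for H19, 0.21 for Igf2, 0.23 for Zim1, 0.0229 for Plagl1, 0.0813 for Grb10, -0.21 for Snrpn, -0.39 for Gnas, -0.016 for Trappc9, -0.19 for Cd81, 0.10 for Mcts2 and 0.42 for Zdbf2. With library size only it was -0.0207 for Airn, -0.0807 for Peg3, -0.0588 for Gnas and -0.0642 for Trappc9, and with upper-quartile scaling -0.0272 for Peg3 and -0.0037 for Trappc9. With the Xist level it was -0.0228 for Igf2r, -0.14 for Peg3 and 0.0569 for Zrsr1, and without K14J28 and K14J29 -0.0136 for Igf2r, -0.13 for Peg3 and 0.0213 for Zrsr1. For Impact it was 0.0273 with the muscle score and 0.0161 without J6 and J7. Leaving out each embryo gave -0.0668 to 0.0685 for Peg3, -0.0935 to 0.0653 for Impact, -0.0751 to 0.16 for Gnas, -0.0136 to 0.0978 for Trappc9 and -0.0485 to 0.0226 for Mcts2. Of 628 values of single genes under 21 alternatives, 481 kept direction and side of the threshold.

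No paired analysis was possible because the labels give the 2 groups no shared replicate numbers. With 9 to 36 counts per WT embryo, Phlda2 and Magel2 are limited by depth, and Usp29 and Ascl2 could not be compared at this depth.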
